A study of Mus musculus with 8 samples.

Results

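The control arrays of 2 mouse stem cell types were compared with each other: 2 arrays of embryonic stem cells (ESC) and 2 of hematopoietic stem cells (HSC), 4 of the 8 arrays of a study of the zinc finger factor Zfx. They were chosen by their labels, ESC Zfx-flox and HSC Zfx-flox, and all 45037 probe sets other than the platform's controls were used on each. ESC Zfx-flox cells were control clones with a loxP-flanked, undeleted Zfx gene (whether both arrays read 1 clone was not given in the sources used here), grown on gelatin without feeder cells in 15% Knockout serum replacement with LIF. HSC Zfx-flox cells were Lin- Sca-1+ c-Kit+ cells sorted from marrow of Zfx flox/y mice without Cre, pooled over 4 to 6 littermates and harvested 4 days after pI·C dosing ended. This gate holds stem cells together with multipotent progenitors. The mice had therefore received pI·C, a double-stranded RNA that induces interferon, and the cultured cells had not. The remaining 4 arrays, ESC Zfx-null and HSC Zfx-cko (Mx1-Cre+, with interferon-inducible Cre), carried the deletion and lent their spread to the test. The ages of the mice were not given in the sources used here.

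Embryonic stem cells derive from the epiblast of the blastocyst and can form all tissues of the body. Their identity rests on the transcription factors Oct4 (Pou5f1), Sox2 and Nanog, and in mouse culture LIF acts through Stat3 to hold them in self-renewal. Hematopoietic stem cells renew the blood for life, depend on factors such as Tal1, Runx1 and Myb, and are held by cytokines that act through receptor kinases such as Kit. Both cell types self-renew, but they reach that state in different tissues and with largely different regulators.

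RNA of the 2 cell types was not prepared alike. ESC RNA (2.5 ug) was linearly amplified in a single round and gave labeled RNA of about 1500 nucleotides. HSC RNA (100 ng from 50000 sorted cells) went through an additional round, which gave about 800 nucleotides. Amplification and cell type cannot be told apart in this design. On the HSC arrays the 5′ control probe set of Gapdh read 339 and 311 against 6134 and 5922 for the 3′ set, a log2 ratio of -4.18 and -4.25, while on the ESC arrays the ratio was 0.44 and 0.38. For Actb the ratio was -3.46 and -3.30 in HSC and -0.46 and -0.32 in ESC. The dimmer controls ran the other way: Tfrc gave -4.93 and -4.81 in ESC and -3.07 and -2.56 in HSC, and Pcx gave -1.69 and -1.99 in ESC and 0.22 and 0.31 in HSC. The account below rests on differences of at least 8-fold and on ranks within each array. Neither limit removes a 5′ difference as large as that of Gapdh. Its 5′ set read 9679 and 10750 in ESC, against 339 and 311 in HSC. A gene read near its 5′ end can thus be called higher in ESC for this reason alone. Where each probe set lies in its transcript was not tested. The arrays of a cell type correlated at r = 0.980 (ESC) and 0.987 (HSC) across probe sets, and arrays of different cell types at 0.786 to 0.789. Samples were hybridized in duplicate, so the p-values reflect differences among arrays that can be purely technical. RNA of many cells was read together, so fewer cells of a type and less RNA per cell cannot be told apart.

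A gene was read by its probe set with the highest mean, and 18193 genes were named. Differences are HSC minus ESC on the scale log2(signal + 14.2), with the standard error (SE) of limma's fit over 8 arrays. A gene was called when Benjamini-Hochberg adjusted p was below 0.05 over all 45037 probe sets and the difference was at least 3 on that scale, which is 8-fold. Folds are ratios of geometric mean signals after values below 14.2, the 25th percentile of all values, were raised to 14.2. Where this touched an array of the dimmer group, the fold is written as "at least". By this rule 734 genes were higher in ESC, 4.03% of all genes, and 361 were higher in HSC, 1.98%. In every called gene the arrays of the 2 cell types did not overlap, and the highest adjusted p was 0.000613 for genes higher in ESC and 0.000591 for those higher in HSC. Non-overlapping arrays were common in general, at 46.9% of genes for ESC above HSC and 31.2% for the reverse. Adjusted p alone was passed by 34.1% of genes higher in ESC and 24.6% higher in HSC, so it was not used to draw directions. Over all genes the median difference was -0.19. Over all probe sets it was -0.21 with the deposited scaling, 0.07 after quantile normalization, 0.33 after median centring and 0.10 with ranks, and each list below is read against that shift. The split of calls moved with it: ESC held 67% of the calls as deposited, 56.4% after quantile normalization (573 against 443 genes), 60.7% with ranks (519 against 336), and 45.5% after median centring (474 against 568). The mean of a gene's probe sets gave 75.7% (588 against 189).

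By rank, 382 genes (2.1%) were at or above the 75th percentile on both ESC arrays and below the 50th on both HSC arrays. The reverse held for 272 genes (1.5%). Another 1756 genes (9.65%) were at or above the 90th percentile on all 4 arrays, and 5202 (28.6%) were below the 50th on all 4. No detection calls were used, so a gene in the lower range is called low and not absent.

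The defining markers separated the labels. The 5 ESC markers Pou5f1, Nanog, Sox2, Zfp42 and Tdgf1 summed to 18158 and 18326 on the ESC arrays and to 15.8 and 31.0 on the HSC arrays, where each read below 14.2. The 5 measured markers of the sorted marrow gate summed to 8415 and 8698 in HSC and 1291 and 1160.2 in ESC. Most of the ESC sum was Kit, the receptor of stem cell factor, at 1124 and 969 in ESC and 1122 and 1174 in HSC. Cd34 (42.5 and 37.9 in ESC, 1058 and 1092 in HSC), Ptprc, the leukocyte antigen CD45 (24.3 and 11.1; 1754 and 1765), and the LIM-only adaptor Lmo2 (37.6 and 68.2; 4191 and 4299) were called higher in HSC. Flt3, the receptor of multipotent progenitors, read 62.7 and 74.0 on the ESC arrays and 289.7 and 367 on the HSC arrays, a difference of 2.05 ± 0.13 that stayed under 8-fold. Ly6a, which encodes Sca-1, was not analysed here.

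Among called genes with every probe set fitted in the same direction, those furthest apart in the ESC direction were Igfbp2, Tdgf1, Sparc, Ccn2, Sox2, Trap1a, Tagln, Nanog, Rhox5 and Pcolce. Igfbp2, an insulin-like growth factor binding protein, read 6845 and 6570.5 on the ESC arrays and 3.85 and 3.32 on the HSC arrays, a difference of -8.56 ± 0.12 (SE) and at least 472-fold, with adjusted p = 1.86e-09 by limma. Tdgf1, the Nodal co-receptor also called Cripto, read 5789 and 5752 on the ESC arrays and 1.09 and 2.38 on the HSC arrays, at least 406-fold. Sparc, a matricellular glycoprotein, read 7558 and 7549 on the ESC arrays and 8.05 and 8.59 on the HSC arrays, at least 531-fold. All 3 were above the 99th percentile on both ESC arrays and below the 25th on both HSC arrays. Rhox5, an X-linked homeobox gene, read 5119 and 5632 on the ESC arrays and 15.6 and 22.7 on the HSC arrays, and Trap1a, an X-linked tumor rejection antigen, 3991 and 4077 on the ESC arrays and 12.5 and 2.31 on the HSC arrays. Tagln, an actin-binding protein of smooth muscle and stroma, read 3176 and 3245 on the ESC arrays and 2.50 and 4.54 on the HSC arrays.

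By the same rule, the genes furthest apart in the HSC direction were Car1, Ctsg, Hemgn, Mndal, Vamp5, Ifi47, Lyz1, Cd48, Kcnn4 and Frat2. Ikzf1 (7.75) and Ighm (7.46) differed as widely by their brightest probe set but had another fitted the other way. Car1, a carbonic anhydrase of erythroid cells, read 8899.8 and 9289.8 on the HSC arrays and 2.73 and 29.9 on the ESC arrays, a difference of 8.38 ± 0.38 (SE), with adjusted p = 2.64e-07 by limma. Its ESC arrays differed from each other, and both lay far below the HSC values. Ctsg, the neutrophil protease cathepsin G, read 3838 and 3945 on the HSC arrays and 2.05 and 2.51 on the ESC arrays, at least 274-fold. Hemgn, a nuclear protein of hematopoietic progenitors, read 3598 and 3964 on the HSC arrays and 1.55 and 3.14 on the ESC arrays, and Cd48, a ligand of the SLAM family, 1819 and 2105 on the HSC arrays and 3.86 and 1.25 on the ESC arrays. All 10 read below 30 on both ESC arrays. Ifi47, an interferon-induced GTPase, read 5861 and 6112 on the HSC arrays and 24.6 and 28.9 on the ESC arrays. Mndal and Lyz1 were read by probe sets whose design can bind related transcripts, so their share of the signal is uncertain. A Lyz1 probe set not of that design read 24.3 and 9.74 on the HSC arrays and 29.0 and 3.41 on the ESC arrays. Its difference of 0.14 was not called, so the agreement of the Lyz1 probe sets includes a fit near 0. A Mndal probe set not of that design was called, at 8.39.

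**Figure D1:**
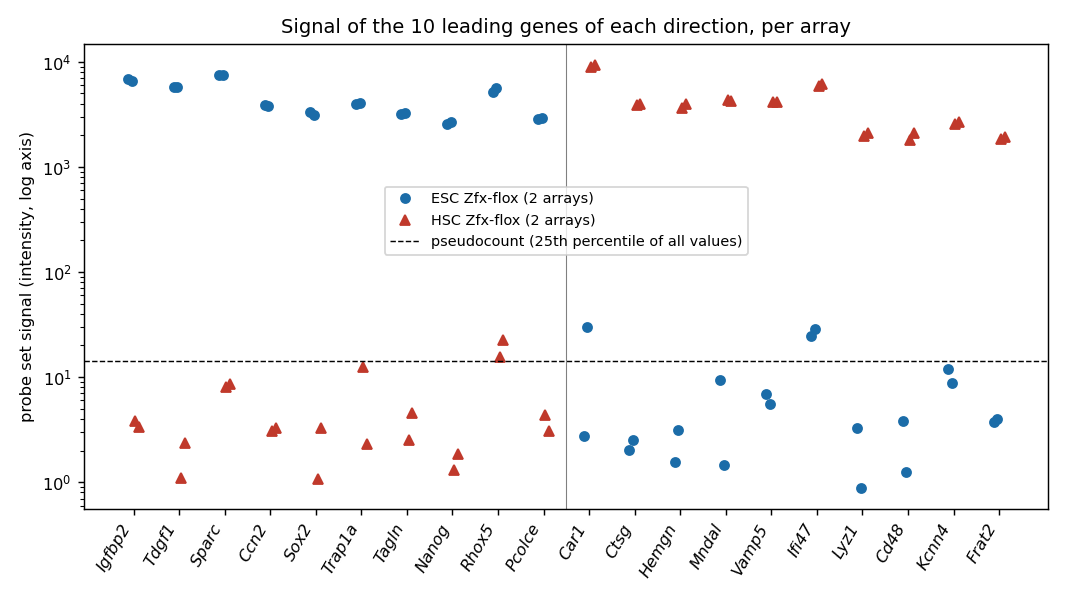
Signal of the 10 leading genes in each direction on a log axis, with circles for the 2 ESC Zfx-flox arrays, triangles for the 2 HSC Zfx-flox arrays and a dashed line at 14.2, the pseudocount. Each gene's brighter cell type lies far above the line on both arrays, and the other cell type lies near or below it.

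Most core pluripotency genes were higher in ESC. Of 23 measured members, 17 were higher in ESC and 0 in HSC (4.03% and 1.98% of all genes), with a median difference of -6.11 against -0.19 over all genes; the counts were 14 to 15 under other scalings. Sox2, Nanog and Pou5f1, the factors that hold the pluripotent state, read 3306 and 3149, 2557 and 2697 and 3220.0 and 3466 in ESC and 1.07 and 3.28, 1.31 and 1.87 and 6.34 and 11.1 in HSC. Their folds were at least 227-fold, at least 185-fold and at least 235-fold, each with SE at or below 0.26 on the log2 scale. Zfp42 (Rex1), a zinc finger factor of the undifferentiated state, read 3285 and 3263 on the ESC arrays and 6.00 and 12.3 on the HSC arrays, at least 230.3-fold. Its promoter is shown because it is the only one of 15 members with a listed promoter to hold the octamer ATTTGCAT, the site letters of POU factors (either strand), within 250 bases upstream. That 250-base window is given below 5′ to 3′ on the gene's strand with the octamer in capitals, from RefSeq, GRCm38.p6, chr8:43307010-43307259, minus strand.
Zfp42: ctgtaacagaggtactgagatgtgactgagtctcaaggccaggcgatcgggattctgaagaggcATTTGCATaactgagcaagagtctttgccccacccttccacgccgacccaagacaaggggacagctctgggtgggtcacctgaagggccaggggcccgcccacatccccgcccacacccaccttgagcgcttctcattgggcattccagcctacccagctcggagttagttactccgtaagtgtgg
The octamer occurred in 1.384% of 14452 upstream windows and in 2.66% (15) of those of genes called higher in ESC. Some members were not low in HSC by their brightest probe set: Jarid2, a Polycomb partner, read 5491 and 5338 on the ESC arrays and 2372 and 2317 on the HSC arrays, Rif1, a telomere and replication timing factor, 2800.2 and 3169.7 on the ESC arrays and 2722 and 2855 on the HSC arrays, and Zfp281 1228 and 992 on the ESC arrays and 1215 and 1288 on the HSC arrays, all above the 90th percentile on the 4 arrays. Another probe set of Jarid2 read 3480 and 3342 in ESC and 48.0 and 41.5 in HSC and was called lower in HSC (-5.86), so its level in HSC depends on the probe set.

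Genes of the naive state and of LIF signalling were 13 of 19 higher in ESC and 0 in HSC, with a median difference of -3.61 (8 to 13 under other scalings). Lifr, the LIF receptor, read 1338 and 1307 on the ESC arrays and 6.75 and 0.868 on the HSC arrays, at least 93.0-fold. Fbxo15, an F-box protein and Oct4 target, read 2989 and 2738 on the ESC arrays and 7.29 and 10.6 on the HSC arrays, and Alpl, alkaline phosphatase, 1183 and 1168 on the ESC arrays and 21.5 and 12.1 on the HSC arrays. The kinase and the factor downstream of the receptor were not called: Jak1 read 301 and 279.6 on the ESC arrays and 1045 and 1079.9 on the HSC arrays, and Stat3 457 and 408 on the ESC arrays and 439 and 372 on the HSC arrays. Pim1, a kinase induced by cytokines, was above the 90th percentile on the 4 arrays, at 883 and 1035 on the ESC arrays and 1993 and 2057 on the HSC arrays.

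Nodal, BMP and FGF signalling gave 12 of 22 higher in ESC and 0 in HSC, median -3.18 (7 to 9 under other scalings). Among ligands, Nodal read 2764 and 2677 on the ESC arrays and 37.0 and 34.4 on the HSC arrays and Bmp4 952 and 990.0 on the ESC arrays and 24.7 and 21.4 on the HSC arrays. Of the receptors, Bmpr1a read 940.4 and 988 on the ESC arrays and 10.2 and 18.0 on the HSC arrays, and Fgfr1 904 and 905 on the ESC arrays and 23.5 and 29.1 on the HSC arrays. These ligands and receptors were below the 50th percentile on average in HSC. Smad1, which carries BMP signals to the nucleus, read 264 and 282 on the ESC arrays and 1528 and 1475 on the HSC arrays, a difference of 2.40 ± 0.062 (SE) under 8-fold. Early differentiation genes gave 6 of 19 higher in ESC and 0 in HSC (3 to 4 under other scalings), with a median of -1.50, and 7 in the low range of both. Otx2, an epiblast and neural factor, read 425 and 435 on the ESC arrays and 1.59 and 1.21 on the HSC arrays, at least 30.2-fold. Krt8, a keratin of simple epithelia, read 1432 and 1566 on the ESC arrays and 37.2 and 20.6 on the HSC arrays.

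Fibroblast and stromal genes were also high in ESC. Of 19 measured, 12 were higher in ESC and 0 in HSC, with a median of -5.58, and 12 under each other scaling. Col3a1, a fibrillar collagen, read 2611 and 2629.5 on the ESC arrays and 8.85 and 9.41 on the HSC arrays, and Fn1, fibronectin, 6913 and 8132 on the ESC arrays and 56.0 and 56.1 on the HSC arrays. The 4 fibroblast markers Col1a1, Col1a2, Postn and Dcn summed to 9687 and 10117 on the ESC arrays and to 147 and 151 on the HSC arrays; none was at 0 in ESC, and the lowest was Dcn, at 209.9 and 196. The labels state that no feeder cells were used, and the part of other cells in these values was not tested. Vim, the intermediate filament of mesenchymal cells, read 4899.9 and 4952 on the ESC arrays and 5153 and 4832 on the HSC arrays and was high in both. Epithelial junction genes were 11 of 19 higher in ESC and 0 in HSC, median -3.01 (5 to 8 under other scalings, 8 at the least without any single array). Cdh1, E-cadherin, read 4342 and 4829 on the ESC arrays and 36.8 and 26.2 on the HSC arrays, 147-fold, and Epcam 2904 and 3079 on the ESC arrays and 47.0 and 4.75 on the HSC arrays.

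Transcription factors of hematopoietic stem cells ran the other way. Of 27 measured, 15 were higher in HSC and 0 in ESC, with a median difference of 3.80 (13 to 16 under other scalings). Ikzf1 (Ikaros), a regulator of lymphoid and stem cell genes, read 3378 and 3452 on the HSC arrays and 1.48 and 1.99 on the ESC arrays, at least 240.2-fold. A dimmer probe set of Ikzf1 gave -0.79. Myb, required for definitive hematopoiesis, read 8736 and 9082 on the HSC arrays and 72.1 and 81.2 on the ESC arrays, 116-fold, and Lmo2 was 83.8-fold. Bcl11a, a repressor of fetal globin genes, read 3537 and 3477 on the HSC arrays and 56.6 and 5.05 on the ESC arrays; Fli1, an ETS factor, read 1022 and 955 on the HSC arrays and 7.34 and 1.15 on the ESC arrays. All 5 lay above the 90th percentile on both HSC arrays. By their brightest probe sets Gata2, Meis1 and Etv6 passed the test under 8-fold, with differences of 2.12 ± 0.080, 2.36 ± 0.10 and 1.63 ± 0.062 (SE), and Etv6 was already at 325 and 335 in ESC. Another probe set of Meis1 read 1181 and 1086 in HSC and 41.2 and 74.3 in ESC and was called, at 4.03 ± 0.19 (SE).

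**Figure D2:**
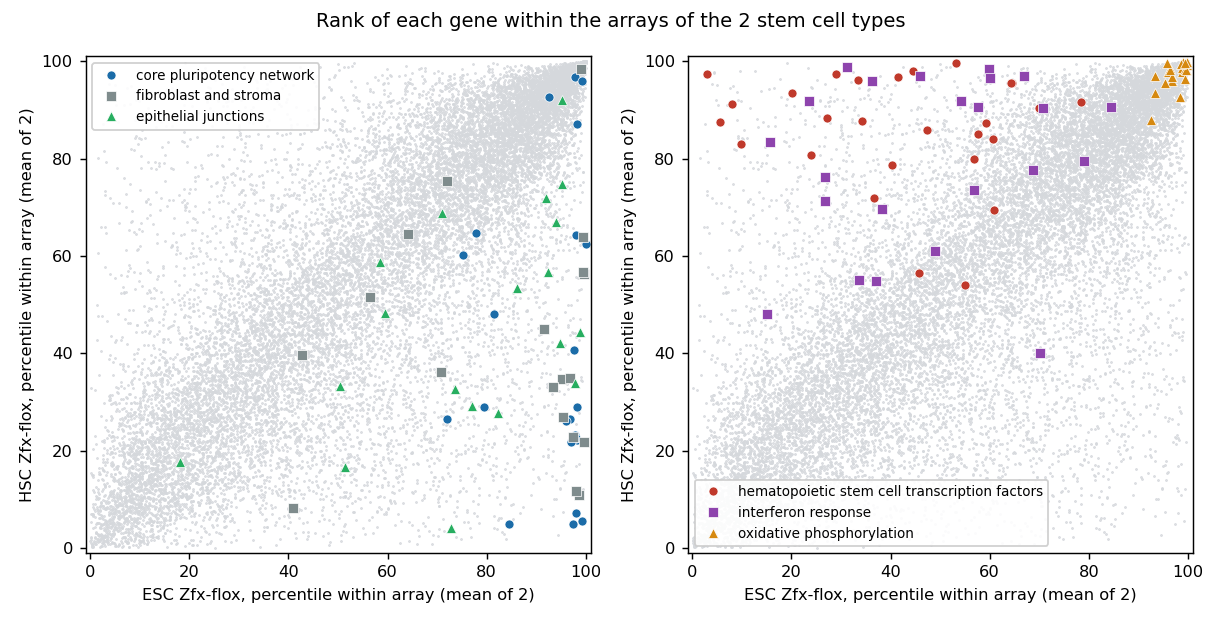
Percentile within the array of each of 18193 genes, ESC on the horizontal and HSC on the vertical axis, each the mean of 2 arrays, with all genes in grey and 3 lists in colour per panel. Core pluripotency, stromal and junction genes lie mostly below the diagonal, HSC transcription factors and interferon genes mostly above it, and oxidative phosphorylation genes near the upper right corner.

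Surface proteins used to sort or describe stem cells split both ways: 7 of 21 were higher in HSC and 4 in ESC, median 2.05. Cd48 was at least 138-fold, Ptprc at least 94.7-fold and Spn, sialophorin, read 2563 and 2487 on the HSC arrays and 90.5 and 41.0 on the ESC arrays. Itga4, an integrin that binds marrow stroma, read 1399 and 1406 on the HSC arrays and 37.1 and 45.9 on the ESC arrays. The 4 higher in ESC were Prom1, Cd9, Itgb1 and Il6st, named after their values were seen; other scalings gave 0 to 4 calls in ESC and 6 to 9 in HSC. Of 24 cytokine receptors and their signalling genes, 4 were higher in HSC and 0 in ESC (median 1.30). They were Btk, a kinase of lymphoid and myeloid cells (433 and 412 in HSC, 3.61 and 6.06 in ESC), Csf2rb, the shared chain of the interleukin-3 and GM-CSF receptors (709 and 710.3; 12.6 and 27.1), Ifnar2 (1651 and 1753; 78.6 and 104) and Jak2 (1668 and 1687; 189.5 and 180.3). Jak2 was nearest to the limit of these 4, at 3.09 ± 0.078 (SE). Other probe sets of Ifnar2 (1.18 and 0.95), Csf2rb (1.44) and Jak2 (0.83) were not called.

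Erythroid and megakaryocyte genes gave 6 of 16 higher in HSC and 0 in ESC, median 1.78. Gata1, the erythroid master factor, read 1754 and 1738 on the HSC arrays and 29.3 and 50.6 on the ESC arrays, and Klf1, its partner in globin control, 1874 and 1974 on the HSC arrays and 28.6 and 54.6 on the ESC arrays. Ermap, an erythroid membrane protein, read 6344 and 6232 on the HSC arrays and 58.7 and 35.9 on the ESC arrays. Alas2, a late erythroid enzyme of heme synthesis, read 37.8 and 17.2 on the HSC arrays and 1.52 and 1.45 on the ESC arrays, in the low range of both. Erythroid regulators were thus high in HSC while this late enzyme was not. Granulocyte and monocyte genes gave 6 of 18 higher in HSC and 0 in ESC, median 1.78. The granule proteases and peroxidase led: Mpo, myeloperoxidase, read 8299 and 8137 on the HSC arrays and 51.4 and 83.7 on the ESC arrays, Prtn3, proteinase 3, 2025 and 2010.2 on the HSC arrays and 27.8 and 13.8 on the ESC arrays, and Elane, neutrophil elastase, 386 and 423 on the HSC arrays and 13.8 and 8.66 on the ESC arrays. Late granule genes were not called: Ltf, lactoferrin, read 53.3 and 40.7 on the HSC arrays and 16.3 and 57.3 on the ESC arrays, and Camp, an antimicrobial peptide, 7.16 and 7.62 on the HSC arrays and 5.39 and 6.24 on the ESC arrays. Itgam, the myeloid integrin CD11b, read 1.71 and 0.885 on the HSC arrays and 28.8 and 10.7 on the ESC arrays. The 5 granulocyte and monocyte markers Elane, Itgam, Ltf, Camp and S100a8 summed to 482 and 530.3 in HSC and 83.0 and 84.95 in ESC, and 2 of them were below 14.2 on both HSC arrays.

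The called members of this list whose upstream window holds GAGGAAGT, the site letters of PU.1-type ETS factors (either strand), were Mpo, Elane and Prtn3, and their 250-base windows are shown for that reason with the motif in capitals. They lie at chr11:87793534-87793783, plus strand (Mpo), chr10:79886062-79886311, plus strand (Elane) and chr10:79879417-79879666, plus strand (Prtn3), in RefSeq, GRCm38.p6.
Mpo: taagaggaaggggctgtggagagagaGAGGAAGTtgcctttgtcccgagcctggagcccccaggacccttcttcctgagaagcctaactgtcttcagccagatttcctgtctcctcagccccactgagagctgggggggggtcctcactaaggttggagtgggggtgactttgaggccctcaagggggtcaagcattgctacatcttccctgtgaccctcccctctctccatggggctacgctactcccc
Elane: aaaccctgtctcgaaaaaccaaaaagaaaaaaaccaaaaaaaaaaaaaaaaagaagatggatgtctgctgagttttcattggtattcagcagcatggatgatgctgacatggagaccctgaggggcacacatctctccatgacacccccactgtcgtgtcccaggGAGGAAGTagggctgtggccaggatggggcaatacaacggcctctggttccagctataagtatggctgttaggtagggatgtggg
Prtn3: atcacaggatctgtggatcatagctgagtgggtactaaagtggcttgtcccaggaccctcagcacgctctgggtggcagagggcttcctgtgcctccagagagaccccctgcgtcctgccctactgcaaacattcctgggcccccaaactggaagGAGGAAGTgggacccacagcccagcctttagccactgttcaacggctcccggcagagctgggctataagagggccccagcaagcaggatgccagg
These letters were found in 4 of the 18 members' windows, S100a8 being the other, in 2.325% of all windows and in 4.225% of those of genes called higher in HSC. A match describes the letters and says nothing of binding.

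Among other blood lineages, mast cell and eosinophil genes gave 4 of 11 higher in HSC and 0 in ESC, median 2.63: Hdc, the histamine-forming enzyme, read 675 and 719 on the HSC arrays and 5.72 and 14.3 on the ESC arrays, and Cpa3, a mast cell protease, 1083 and 1097 on the HSC arrays and 20.1 and 62.9 on the ESC arrays. Lymphoid-primed progenitor genes gave 3 of 11 higher in HSC: Ighm 5204 and 5484 on the HSC arrays and 9.24 and 25.2 on the ESC arrays, Dntt, the enzyme that adds bases at antigen receptor joints, 462 and 559 on the HSC arrays and 8.14 and 2.63 on the ESC arrays, and Mef2c 1047 and 1092 on the HSC arrays and 23.5 and 10.7 on the ESC arrays. Genes of mature B, T and NK cells gave 1 of 16, the granule protein Nkg7 (1130.5 and 1122; 34.2 and 8.08 in ESC), and 9 were in the low range of both cell types. The 5 measured markers Cd79a, Cd3e, Cd4, Cd8a and Ncr1 summed to 176 and 135 in HSC and 215 and 261 in ESC. By their brightest probe sets these 3 lymphoid-primed genes were thus high in HSC, and the summed mature markers were not above the ESC level. The brightest Dntt probe set is of a design that can bind related transcripts, and the other Dntt probe sets (2.39 and 0.66) were not called. Ighm had another probe set called higher in HSC, at 5.57, and its remaining ones were not called. The share of other cells in the sort was not tested.

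Of 23 interferon response genes, 10 were higher in HSC and 0 in ESC, median 2.16 (8 to 11 under other scalings). Only the mice had received pI·C, so this treatment and the cell type cannot be told apart. Psmb8 and Psmb9, immunoproteasome subunits, read 2253 and 2357 and 3050.0 and 3101 in HSC and 30.3 and 39.5 and 53.6 and 53.9 in ESC. Igtp, an interferon-induced GTPase, read 4961 and 5330.4 on the HSC arrays and 104 and 113 on the ESC arrays, 47.4-fold, and Rtp4 1234 and 961 on the HSC arrays and 25.5 and 9.11 on the ESC arrays. Gbp2, a guanylate-binding protein named after its values were seen, read 2548 and 2786 on the HSC arrays and 101 and 117 on the ESC arrays. Bst2, tetherin, was not called and read 260.0 and 289 on the HSC arrays and 379 and 312 on the ESC arrays, with a difference of -0.31 ± 0.28 (SE). The called members with the interferon-stimulated response element (either strand) upstream were Igtp and Gbp2, shown with the element in capitals and on the opposite strand in Gbp2, at chr11:58199306-58199555, plus strand (Igtp) and chr3:142620413-142620662, plus strand (Gbp2), RefSeq, GRCm38.p6.
Igtp: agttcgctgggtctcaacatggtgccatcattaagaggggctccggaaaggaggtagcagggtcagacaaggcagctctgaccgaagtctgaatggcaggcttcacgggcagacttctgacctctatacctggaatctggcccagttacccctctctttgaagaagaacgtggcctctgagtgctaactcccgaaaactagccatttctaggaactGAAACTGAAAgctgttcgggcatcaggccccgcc
Gbp2: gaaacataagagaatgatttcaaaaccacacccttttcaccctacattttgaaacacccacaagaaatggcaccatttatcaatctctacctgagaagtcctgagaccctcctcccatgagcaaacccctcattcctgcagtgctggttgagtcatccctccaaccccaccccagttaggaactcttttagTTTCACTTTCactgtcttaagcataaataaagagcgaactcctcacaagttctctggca
Windows of 8 of 18 members (44.44%) held it, against 2.629% of all windows and 6.338% of those of genes called higher in HSC. Most of the 8 were not called: Bst2, Stat2, Irgm1, Rsad2, Ifit3 and Ifit1. Antigen presentation genes gave 3 of 14 higher in HSC, Nlrc5, H2-Aa and H2-Ab1. H2-Ab1, a class II chain, read 395 and 471 on the HSC arrays and 5.95 and 4.66 on the ESC arrays, and the class I genes B2m and H2-K1 were high in both, at 1828 and 1836 and 1130.0 and 1046 in ESC and 8497 and 9338 and 5864 and 5820.1 in HSC. Their differences were 2.27 and 2.41, and each had a dimmer probe set called higher in HSC, at 3.005 and 3.19. Leukocyte adhesion and cytoskeleton genes gave 8 of 23 higher in HSC and 1, Icam1, in ESC; other scalings gave 0 ESC calls. Fermt3, an integrin activator, read 3149 and 3287 on the HSC arrays and 73.7 and 55.4 on the ESC arrays, and Lcp1, a leukocyte actin bundler, 896 and 906 on the HSC arrays and 34.4 and 23.8 on the ESC arrays.

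**Figure D3:**
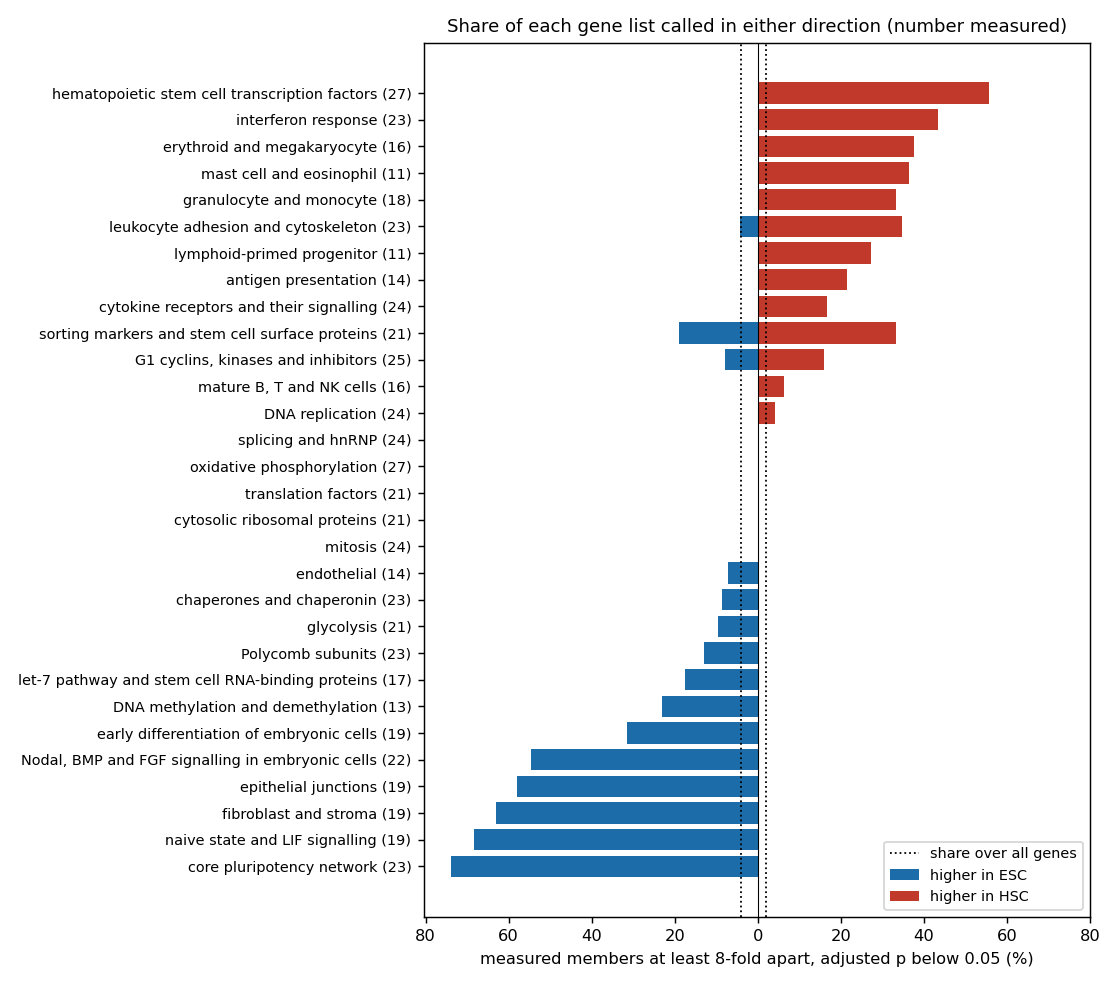
Share of the measured members of 30 gene lists called higher in ESC (to the left) or in HSC (to the right), with the number measured in brackets and dotted lines at the shares over all genes, 4.03% and 1.98%. Core pluripotency has the longest bar to the left, 17 of 23, and HSC transcription factors the longest to the right, 15 of 27.

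Chromatin regulators differed member by member. DNA methylation genes gave 3 of 13 higher in ESC and 0 in HSC. Dnmt3l, a cofactor of de novo methylation, read 2636 and 2829.7 on the ESC arrays and 5.82 and 10.7 on the HSC arrays, and Tet1, a 5-methylcytosine dioxygenase, 4379 and 4529 on the ESC arrays and 363 and 449.6 on the HSC arrays, so Tet1 was high in ESC and still above the 80th percentile in HSC. Dnmt3b, Uhrf1 and Hells were high in both, with differences of -0.47, -0.10 and -0.42. Another probe set of Uhrf1 read 1242 and 1112 in ESC and 39.7 and 26.9 in HSC and was called lower in HSC (-4.66). Polycomb subunits gave 3 of 23 higher in ESC: Epop 502 and 475 on the ESC arrays and 0.798 and 0.976 on the HSC arrays, Phc1 4142 and 4023 on the ESC arrays and 298 and 289 on the HSC arrays and Cbx7 986 and 1049 on the ESC arrays and 82.2 and 72.8 on the HSC arrays. Other scalings gave 1 to 2 methylation and 1 to 3 Polycomb genes called higher in ESC. The core subunits Ezh2 (1483 and 1438 in ESC, 3599.5 and 3555 in HSC) and Eed (2694 and 2725; 3105 and 2959.8) were high in both. Of the let-7 pathway and stem cell RNA-binding genes, Lin28a, which blocks let-7 maturation, read 1825 and 1978 on the ESC arrays and 15.6 and 8.21 on the HSC arrays, Trim71 2386 and 2381 on the ESC arrays and 18.5 and 2.94 on the HSC arrays and Igf2bp1 2212 and 2343 on the ESC arrays and 39.2 and 31.7 on the HSC arrays, 3 of 17 higher in ESC.

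Of 26 pairs of related genes with both members measured, 1 was called in opposite directions, 1 in the same direction, 13 had 1 member called and 11 had none. Myb was 116-fold higher in HSC, and Mybl2, a cell cycle relative, read 1441 and 1614 on the ESC arrays and 119 and 102 on the HSC arrays, a difference of -3.63 ± 0.13 (SE). Cdk6, a D-cyclin kinase, read 6444 and 6626 on the HSC arrays and 501 and 503 on the ESC arrays, 13.0-fold, and its relative Cdk4 read 1293 and 1442 on the HSC arrays and 2742 and 2996 on the ESC arrays, high in both. Bcl2, which blocks apoptosis, read 803 and 827 on the HSC arrays and 12.2 and 25 on the ESC arrays, and Bcl2l1 229.8 and 226 on the HSC arrays and 472 and 771 on the ESC arrays. Cdk6 and Bcl2 were therefore called higher in HSC, and their relatives, with differences of -1.06 and -1.35, were not called by their brightest probe sets; another probe set of Bcl2l1 was called higher in ESC (-3.39). Smarca2 and Smarca4 are the alternative ATPases of the BAF remodelling complex: Smarca2 read 599 and 578 on the HSC arrays and 47.8 and 41.5 on the ESC arrays and Smarca4 885 and 899 on the HSC arrays and 1902 and 1733 on the ESC arrays. Aldh1a1, the aldehyde dehydrogenase, read 1777 and 1689 on the HSC arrays and 2.53 and 4.88 on the ESC arrays, and Aldh2 1173 and 1084 on the HSC arrays and 828 and 734 on the ESC arrays. Slc2a1, a glucose transporter, read 6334 and 6915 on the ESC arrays and 184 and 198 on the HSC arrays, and Slc2a3 8266 and 9902 on the ESC arrays and 1734 and 1725 on the HSC arrays. Another probe set of Slc2a3 read 2431 and 2373 in ESC and 4.39 and 0.911 in HSC (-7.17, called). Sall4 and Sall1 were both called higher in ESC, at -7.00 and -5.12. In the G1 list 4 of 25 were higher in HSC, Rbl1, Cdkn2c, Cdk6 and Rb1, and 2 in ESC, the inhibitors Cdkn2b (565 and 671 in ESC, 5.72 and 6.78 in HSC) and Cdkn1c (1032 and 1013; 45.4 and 57.8). Rb1 was named after its values were seen, and other scalings gave 0 to 4 HSC calls.

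Many genes of growth and division were high in both stem cell types. The 15 genes with the highest lowest percentile over the 4 arrays were Rps18, Rps29, Rps3a1, Rpl10a, Hspa8, Rpl13a, Rps28, Rpl38, Rpl6, Npm1, Rps3, Eef1a1, Rps20, Tpt1 and Rps14. Rps18, a small-subunit ribosomal protein, led with 12107 and 13084 on the ESC arrays and 16471 and 16330.5 on the HSC arrays. Ribosomal protein probe sets can also bind pseudogene transcripts, which was not tested. Hspa8, the constitutive Hsc70 chaperone, read 10454 and 11145 on the ESC arrays and 11085 and 11095 on the HSC arrays, and Npm1, nucleophosmin, 9068 and 10322 on the ESC arrays and 11037 and 11070.4 on the HSC arrays. Of the 100 genes with the highest signal in each cell type 54 were shared, and of the top 1000 the share was 57.8%. Oxidative phosphorylation genes were high in both for 26 of 27, splicing genes for 21 of 24 and translation factors for 20 of 21. The counts were 19 of 21 for ribosomal proteins and 18 of 23 for chaperones, and the share over all genes was 9.65%. Of the chaperones, Pdia3 and Hspb1 were called higher in ESC, at -4.87 and -4.73, and 0 were called higher in HSC. None of the oxidative phosphorylation, translation factor, ribosomal protein or mitosis members was called at 8-fold by limma. Adjusted p alone was passed by 8, 9, 2 and 9 of them higher in ESC and by 16, 9, 10 and 14 higher in HSC. In replication, 13 of 24 were high in both. Fen1, a flap endonuclease, was the only call (5957 and 6631 in HSC, 694 and 696 in ESC). The other Fen1 probe set read 838 and 874 in HSC and 738 and 670 in ESC (0.28) and was not called, so this call depends on the probe set. Mcm7, a helicase subunit, read 5616 and 6367 on the ESC arrays and 8816 and 9011 on the HSC arrays, and Pcna, the sliding clamp, 6118 and 6514 on the ESC arrays and 7724 and 7563 on the HSC arrays. Glycolysis was less even, with 8 of 21 high in both and Slc2a1 and Pkm, pyruvate kinase, called higher in ESC. Pkm read 4046 and 4599 on the ESC arrays and 146 and 133 on the HSC arrays, while Pgk1 read 5593 and 5946 on the ESC arrays and 8930.1 and 9396 on the HSC arrays.

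Probe sets of a gene did not always give the same answer, and 9010 genes had several. Of the 389 such genes called higher in ESC, every probe set was fitted in that direction for 347, and of the 233 called higher in HSC for 153. Every probe set passed the call for 101 and 26 of them. Kit is the plainest case for the sorting markers: the brighter probe set read alike in both, and the other read 359 and 367 in ESC and 17.8 and 43.4 in HSC, a difference of -3.14. Hspa9, the mitochondrial chaperone mortalin, was the only gene with calls in opposite directions, at -3.15 and 3.23. Zfx, the gene that carries the loxP sites, had 4 probe sets; the brightest read 262 and 318 on the ESC arrays and 696 and 752 on the HSC arrays, a difference of 1.28 ± 0.11 (SE), and 2 of the 4 were fitted lower in HSC. No direction is therefore given for Kit, Hspa9 or Zfx. Of the genes described above as called, Cdk6, Ikzf1, Ighm, Smarca2, H2-Ab1, Hdc, Rb1 and Itgb1 each had another probe set fitted the other way without passing 8-fold, so their directions hold for the brightest probe set. Of the 1300 genes high in both with several probe sets, 175 had another probe set called higher in ESC and 12 one called higher in HSC, so this class rests on the brightest probe set. Of those described above, the former hold Slc2a3 (-7.17), Jarid2 (-5.86), Uhrf1 (-4.66), Tfrc (-3.51), Pim1 (-3.39), Kit, Hspa9 and Rps18 (-3.01), and the latter B2m, H2-K1 and Hspa9.

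**Figure D4:**
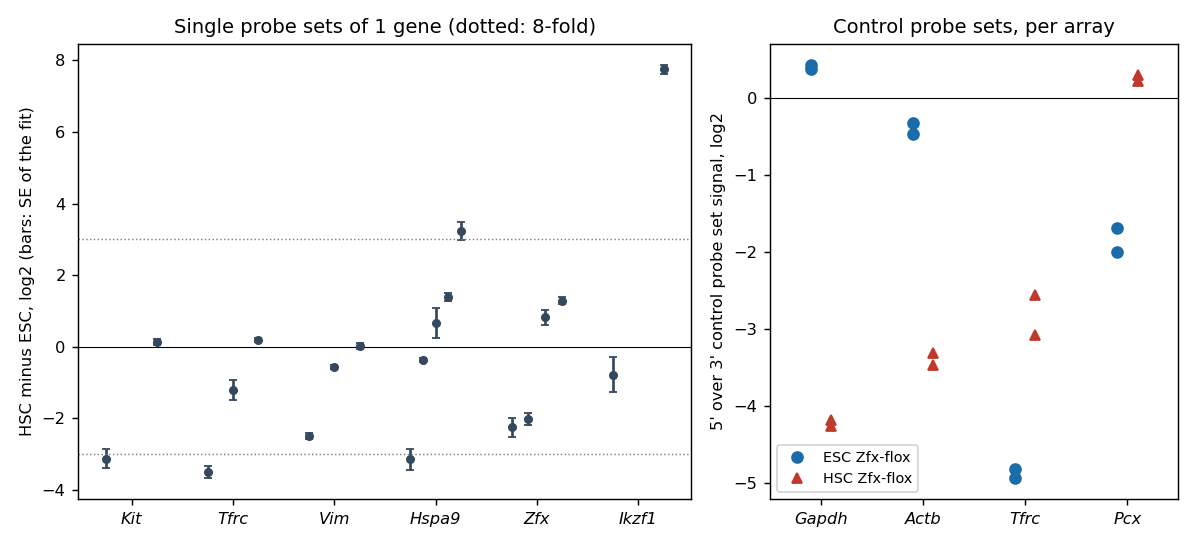
Left, the HSC minus ESC difference (log2) of each probe set of 6 genes, with bars for the standard error of the fit and dotted lines at 8-fold; right, the 5′ over 3′ log2 ratio of the control probe sets of 4 transcripts on each array. Kit, Tfrc, Hspa9, Zfx and Ikzf1 have probe sets on both sides of 0. The control ratio is lower in HSC for Gapdh and Actb and lower in ESC for Tfrc and Pcx. The Tfrc and Pcx controls are dim in HSC, so their HSC ratios say little about 5′ coverage.

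The promoters were described by their base content. RefSeq listed an upstream window for 14452 of 18193 genes, and the first listed start was used. The median number of CpG dinucleotides in 250 bases was 13 over all genes, 14 for genes called higher in ESC, 7.5 for those called higher in HSC, 18 for genes high in both and 4 for genes low in both. At least 10 CpG were found in 67.91% of the ESC group, 43.31% of the HSC group, 86.7% of genes high in both and 28.65% of genes low in both, against 59.44% of all genes. These are descriptions without a test. On the X chromosome lay 5.32% (39) of placed genes called higher in ESC and 4.16% (15) of those higher in HSC, against 3.41% of all genes.

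**Figure D5:**
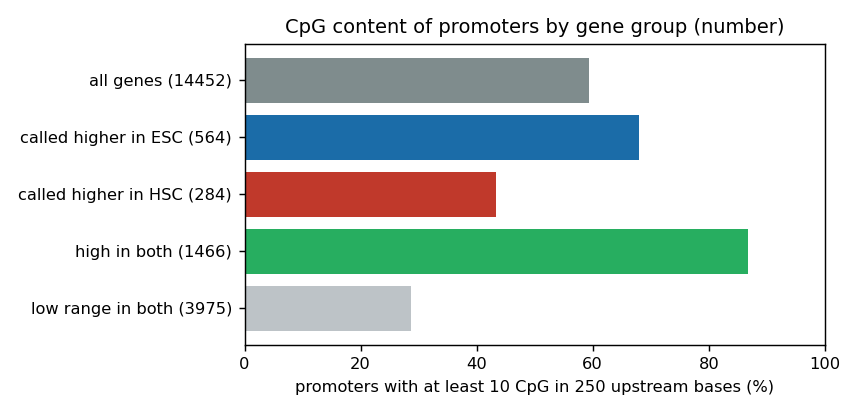
Percent of promoters with at least 10 CpG in the 250 bases upstream of the first listed start, by gene group, with the number of promoters in brackets. The bar of genes high in both is the longest, at 86.7%, and that of genes low in both the shortest, at 28.65%.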

How the data were processed

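Expression was measured on Affymetrix Mouse Genome 430 2.0 arrays, 8 in 4 groups of 2. The authors deposited linear probe set intensity values made with GCOS 1.4, per the submitters' processing notes. Each array's mean was 250 after the highest and lowest 2% of probe sets were removed; how probe sets were summarised, and detection calls, were not stated in these sources. The number of arrays limits the precision, and the median SE was 0.218 (log2). The deposited scaling was kept.

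The 64 AFFX controls were not used. Of the rest, 34945 had 1 gene symbol in the platform annotation, 932 several and 9160 none; 34741 matched RefSeq (GRCm38.p6) and 0 symbols changed. Group means of all 8 arrays were fitted with limma 3.58.1 in R 4.3.3 on log2(intensity + 14.2), with a variance trend (4 residual and a median of 4.24 prior degrees of freedom). No filter on low values was applied. Counts, percentiles, promoter words and plots were made in Python 3.11.15 (pandas 2.3.3, numpy 2.4.6, matplotlib 3.10.9). On simulated data over 45037 probe sets the fit recovered 192 of 200 changed ones (96%). Recovery was counted by adjusted p alone, and every planted difference was above 8-fold. Far fewer probe sets were changed than differ here, so this share is not the power of the call. Same-numbered replicates did not deviate together (correlation -0.016), so no block was used.

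Genes were picked for naming by rule. The 10 furthest apart in each direction with agreeing probe sets and the 15 highest in both were picked. So were up to 5 called and 3 other members per list (30 lists). All cell type markers, 29 pairs of related genes, genes with opposing probe sets, and Zfx were added. Not all of them are described above: the mast cell, endothelial and primitive endoderm markers and many of the pairs are left out. Some genes outside these rules were named too, most of them marked as such. The members and lists were chosen with earlier results of these data known. Alternatives changed the pseudocount, scaling, filter, fold limit, ranges, probe set rule, arrays and block.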

Additional observations from a re-analysis of the deposited data

Results flagged for a closer look

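The same HSC minus ESC contrast was compared between Zfx-deleted arrays (HSC Zfx-cko minus ESC Zfx-null) and Zfx-flox arrays for the 20 leading genes, and all 20 kept their direction and their call in the deleted arrays. For 10 of them the size of the difference changed by limma's interaction term (adjusted p below 0.05), as it did for 3855 of 18193 genes. Written as deleted minus flox on the log2 scale, the change was 1.324 for Tdgf1 (adjusted p = 0.00187), 1.552 for Sparc (0.00024), -1.131 for Tagln (0.00157), 0.721 for Nanog (0.017) and 0.736 for Pcolce (0.0387). It was -2.078 for Car1 (0.0326), 0.537 for Ctsg (0.0212), -1.942 for Hemgn (0.00488), -0.632 for Vamp5 (0.0177) and 0.998 for Cd48 (0.00653). Both kinds of deletion enter this contrast, so it does not say in which cell type a gene changed.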

How the results depend on the processing

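Against 734 genes higher in ESC and 361 higher in HSC, the 50th percentile as pseudocount gave 344 and 234, the 10th gave 1108 in ESC, median centring gave 474 and 568, a limit of 4-fold gave 1676 and 906, and 16-fold gave 325 and 171. Where every probe set of a gene had to pass, 446 and 154 remained, and the mean of a gene's probe sets gave 189 higher in HSC. Of the genes by range, 382 (upper in ESC, low in HSC), 272 (the reverse) and 1756 (high in both) became 180, 127 and 752 with stricter percentiles, 768, 654 and 2804 with wider ones, and 223, 142 and 593 where every probe set had to meet the range. Leaving out each control array in turn gave 724 to 768 genes higher in ESC and 360 to 365 higher in HSC. Those ranges then held 406 to 429, 283 to 303 and 1768 to 1817 genes, with 5352 to 5437 low in both. A range asks both arrays of a cell type to pass, so leaving an array out could only keep or raise these range counts. With the replicate number as a block the counts were 734 and 361 again, and no named gene's call changed. By the probe set least in favour of the direction, 35 of the 163 genes checked turned sign. In 13 of them one of the probe sets was called: Cdk6 (-1.47), H2-Ab1 (-0.074), Hdc (-0.048), Hspa9 (-3.15), Ighm (-0.58), Ikzf1 (-0.79), Itgb1 (0.29), Kit (-3.14), Pim1 (-3.39), Rb1 (-0.19), Rps18 (-3.01), Smarca2 (-0.0011) and Tfrc (-3.51). In the other 22 neither was, among them Zfx (-2.26), Mcm7 (-2.24), Npm1 (-0.84), Smad1 (-0.35) and Jak1 (-0.22); the cause was not tested. Of the 102 checked genes that were called, 31 lost the call by that probe set without turning. The mean of probe sets took the call from 20, ranks from 17 and the Zfx-deleted arrays from 13. The 50th percentile as pseudocount took it from 8, median centring from 7 and quantile normalization from 3. None of these settings but the probe set turned a called gene's sign.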
